A study of Rattus norvegicus with 12 samples.

Results

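The genes described here are 31 genes of glycolysis and of the response to low oxygen: the sugar and lactate carriers, the enzymes from hexokinase to lactate dehydrogenase, the switches around pyruvate, and target genes of hypoxia such as Vegfa. They were chosen as a list of gene symbols, and a probe set (a group of short probes for 1 transcript) counts as a member's where the platform table gives it that symbol alone. Of the 31 genes, 30 have such a probe set and 29 have one outside the array's own controls. By their mean over all arrays, all 29 were bright enough to be tested, among 10260 genes tested in all. Gapdh is measured by 3 control probe sets only, and Pkm (pyruvate kinase) is named only together with a second symbol and was not analysed here.

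RNA came from cultures of rat cerebellar granule neurons, the small excitatory neurons of the cerebellum, and was measured on 12 Affymetrix arrays in 4 groups of 3. The groups are low potassium at 3 h (LK_3h), GW5074 at 3 h (GW_3h), low potassium at 6 h (LK_6h) and GW5074 at 6 h (GW_6h), and each holds arrays of letters A, B and C. GW5074 is a small-molecule inhibitor of the kinase c-Raf. Lowering potassium is a standard way to start the death of these neurons in culture. The labels do not give the age of the animals or cultures, the dose of GW5074, or whether the GW5074 cultures were in low potassium as well. None of the groups is labelled as untreated or as raised potassium, so the effect of a treatment over these hours and that of longer culture, or of a batch that differs between the times, cannot be told apart. The title of GW_6h A ends in another suffix than those of the other 11 arrays. Nothing in the labels says that the letters are separate cultures, so the p-values measure a spread between arrays that may be technical.

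Glycolysis splits glucose into pyruvate, which is either turned into lactate or carried into mitochondria and oxidised by pyruvate dehydrogenase. Under low oxygen the transcription factor HIF-1 raises carriers, most glycolytic enzymes and the pyruvate dehydrogenase kinases, together with secreted factors such as Vegfa and adrenomedullin. Neurons depend on glucose, and in the cerebellum different isoforms of these enzymes mark neurons and glia.

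HIF-1 binds DNA at short sites whose core is ACGTG, and members of the Myc and Mondo families bind CACGTG. The 250 bases before the RefSeq start site (assembly GRCr8) were searched for ACGTG on both strands. CACGTG holds ACGTG on both strands and was counted once. Of all 33469 windows of this length in the RefSeq table, 16.6% held ACGTG and 5.59% held CACGTG. Windows were found for 28 of the 31 genes, and 14 of these had ACGTG in at least 1 window, 5 with CACGTG. Some genes have more than 1 window (Aldoa has 3), so these counts of genes are not on the same basis as the shares of windows. Of the 10 genes that changed from 3 h to 6 h in both treatments, 9 have a window and 6 of those hold the motif. Those 6 windows are printed 5′ to 3′ on the gene's strand with the motif in capitals: first 3 genes that fell (Ldha, Pgam1, Slc2a1), then 3 that rose (Aldoc, Pdk2, Mxi1). A match is a description of these letters and no evidence of binding, and the motif stands in genes of both directions.
Ldha: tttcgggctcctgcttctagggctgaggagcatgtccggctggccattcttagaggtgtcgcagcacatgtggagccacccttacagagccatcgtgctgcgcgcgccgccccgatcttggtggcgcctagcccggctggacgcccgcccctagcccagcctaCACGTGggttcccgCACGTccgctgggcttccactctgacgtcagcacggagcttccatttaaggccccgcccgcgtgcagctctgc
Pgam1: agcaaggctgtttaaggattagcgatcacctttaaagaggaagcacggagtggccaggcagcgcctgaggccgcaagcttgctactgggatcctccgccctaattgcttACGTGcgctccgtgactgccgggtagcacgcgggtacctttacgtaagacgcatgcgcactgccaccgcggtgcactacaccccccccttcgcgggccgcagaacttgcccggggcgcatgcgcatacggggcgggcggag
Slc2a1: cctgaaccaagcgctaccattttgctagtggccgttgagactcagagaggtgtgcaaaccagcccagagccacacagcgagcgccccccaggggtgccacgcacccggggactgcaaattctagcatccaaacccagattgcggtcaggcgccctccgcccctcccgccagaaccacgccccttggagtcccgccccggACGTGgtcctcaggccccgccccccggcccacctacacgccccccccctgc
Aldoc: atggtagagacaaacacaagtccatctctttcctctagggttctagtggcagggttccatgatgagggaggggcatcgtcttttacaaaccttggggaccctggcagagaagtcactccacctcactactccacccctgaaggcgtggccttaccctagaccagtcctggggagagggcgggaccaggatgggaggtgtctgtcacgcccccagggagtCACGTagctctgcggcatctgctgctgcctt
Pdk2: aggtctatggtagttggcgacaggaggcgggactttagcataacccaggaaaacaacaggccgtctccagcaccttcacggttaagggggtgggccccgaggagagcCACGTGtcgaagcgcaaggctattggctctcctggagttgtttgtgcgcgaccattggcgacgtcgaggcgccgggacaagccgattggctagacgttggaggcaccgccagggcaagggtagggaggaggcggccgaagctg
Mxi1: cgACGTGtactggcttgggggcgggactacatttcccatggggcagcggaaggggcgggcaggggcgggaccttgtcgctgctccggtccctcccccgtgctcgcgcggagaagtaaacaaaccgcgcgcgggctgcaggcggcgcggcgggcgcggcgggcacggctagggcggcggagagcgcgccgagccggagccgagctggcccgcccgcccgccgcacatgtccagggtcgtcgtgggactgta
The window of Ldha, chr1:106507842-106508091 (plus strand), held 2 matches, which begin at -87 (a CACGTG) and -73 from the start site. That of Pgam1, chr1:250672902-250673151 (plus strand), held 1 at -141 and that of Slc2a1, chr5:138002272-138002521 (plus strand), 1 at -51. Among the genes that rose, Aldoc, chr10:63715294-63715543 (plus strand), held 1 at -31, Pdk2, chr10:80483913-80484162 (minus strand), a CACGTG at -143 and Mxi1, chr1:262348392-262348641 (plus strand), 1 at -248. Of the 12 genes called in neither treatment, 11 have a window and 4 of those hold the motif (Aldoa, Eno2, Pdhb and Pfkfb3).

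In low potassium, 12 of the 29 genes differed between 6 h and 3 h by limma at an adjusted p under 0.05 over all probe sets. The words called, rose and fell are used for this. Of these, 9 fell (the carriers Slc2a1 and Slc16a1, the enzymes Hk2, Tpi1, Pgam1 and Ldha, and the hypoxia targets Vegfa, Adm and Ndrg1), against a background of 14.1% of all genes that fell, and 3 rose (Aldoc, Pdk2 and Mxi1), against 11.5%. With GW5074, 15 were called: 7 fell (14.1% of all genes fell) and 8 rose (13.5% of all genes rose). The 7 that fell with GW5074 are all among the 9 that fell in low potassium, and the 3 that rose in low potassium also rose with GW5074. Hk2 and Adm, counted as falling in both treatments, passed the filter on dim probe sets through their 3 h arrays, which favours a fall. Hk1, Gpi, Pfkm, Slc2a3 and Pdk1 rose with GW5074 and were not called in low potassium, and Tpi1 and Slc16a1 fell in low potassium and were not called with GW5074. For none of these 7 did the test of the difference between the treatments pass (the lowest adjusted p was 0.105, for Hk1 in the fit with pairs), so the lists are not shown to differ. The median log2 change was -0.18 over the members and -0.04 over all genes in low potassium, and -0.11 and -0.02 with GW5074. In bulk RNA, fewer cells of a type and less RNA per cell cannot be told apart. Log2 changes and folds are of quantile-normalised intensities with 16 added, which understates the change of dim genes. Intensities are as deposited, in array units that allow no comparison between genes.

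**Figure D1:**
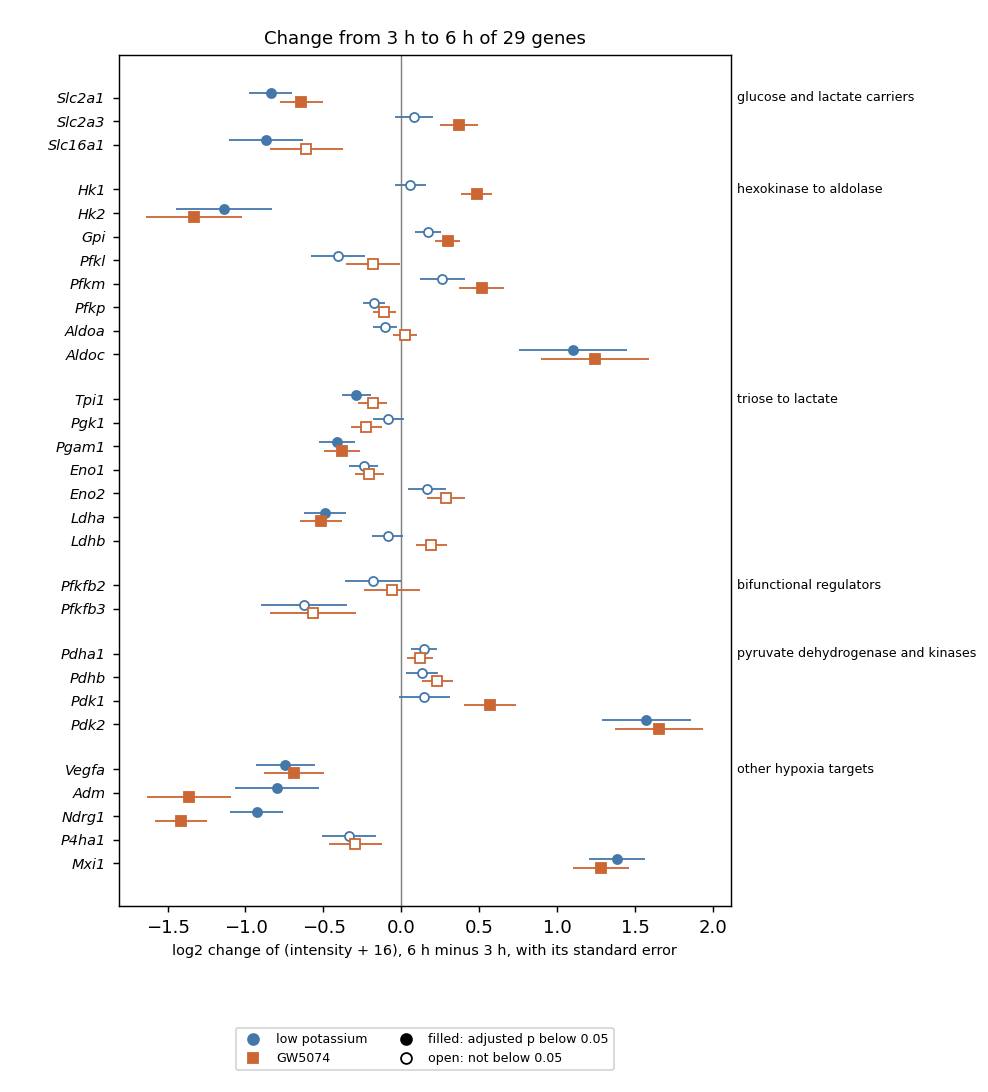
Log2 change from 3 h to 6 h (horizontal axis, with its standard error) of 29 genes in role order, for low potassium (circles) and GW5074 (squares), filled where the limma adjusted p was under 0.05. Pdk2, Mxi1 and Aldoc lie furthest to the right in both treatments, and Hk2, Ndrg1 and Adm furthest to the left with GW5074.

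Slc2a1 encodes GLUT1, the glucose carrier of most cells and of glia, and it fell at 6 h in both treatments. Its intensity was 195.6, 195.8 and 214.2 in LK_3h (letters A, B and C) and 119.6, 121.9 and 93.96 in LK_6h. With GW5074 it was 211.6, 220.7 and 192.0 at 3 h and 137.2, 137.6 and 127.7 at 6 h. All 6 arrays at 6 h lay below all 6 arrays at 3 h. The log2 change was -0.84 in low potassium (SE 0.135, limma adjusted p = 0.00127), a 1.79-fold fall, and -0.64 with GW5074 (SE 0.135, adjusted p = 0.00446), a 1.56-fold fall. Slc2a3 encodes GLUT3, the high-affinity glucose carrier of neurons. Its mean was 660.1 ± 60.7 (SD, n = 3) in LK_3h, 618.6 ± 64 in GW_3h, 699.9 ± 54.8 in LK_6h and 804.4 ± 32.1 in GW_6h. It rose with GW5074 by 0.37 (adjusted p = 0.0401) and had 0.08 in low potassium (adjusted p = 0.668). This rise is the least stable of those named: it ended without any 1 of 6 arrays (LK_3h B, GW_3h A, GW_3h B and each GW_6h array, adjusted p between 0.0548 and 0.168), and a dimmer probe set of Slc2a3 gave -0.11 in low potassium and 0.06 with GW5074, neither called.

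Slc16a1 encodes MCT1, a carrier of lactate and pyruvate. In low potassium it read 566.9, 535.9 and 550.7 at 3 h and 256.6, 422.5 and 249.2 at 6 h, and with GW5074 509.6, 513.4 and 464.9 at 3 h and 300.5, 499.4 and 241.7 at 6 h. In low potassium the times did not overlap, while with GW5074 the 6 h array of letter B lay within the 3 h range. The fall was 0.87 on the log2 scale in low potassium (adjusted p = 0.0177), and the value with GW5074 was -0.61 (adjusted p = 0.0722). In low potassium the call ended without LK_3h A, LK_3h B, LK_6h A or LK_6h C (adjusted p between 0.0532 and 0.0790).

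The hexokinases, which trap glucose in the cell, went different ways by isoform. Hk2, the isoform induced by insulin and by hypoxia, was dim: it read 63.6, 61.0 and 24.9 in LK_3h, 81.1, 43.9 and 57.2 in GW_3h, 4.89, 18.5 and 14.3 in LK_6h and 7.46, 17.2 and 14.9 in GW_6h. All 6 h arrays lay below all 3 h arrays. At 6 h it read no higher than Slc1a2 and Gjb6, 2 genes too dim to be tested (up to 24.7 and 21.4), so no fold is given and the size of the fall depends on the constant added. With 16 added it fell in low potassium (log2 -1.14, SE 0.308, limma adjusted p = 0.0175) and with GW5074 (log2 -1.33, adjusted p = 0.00738). The filter on dim probe sets uses the mean over all arrays, and Hk2 passed it through its 3 h arrays. A gene that passes in this way can hardly show a rise, so these p-values are weak support for the fall. The low-potassium call ended without LK_3h A, LK_3h B or LK_6h A (adjusted p between 0.0735 and 0.0811). With 64 added its changes were -0.54 and -0.66.

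Hk1, the main hexokinase of brain, read 909.3, 936.2 and 965.6 in LK_3h, 859.8, 882.9 and 786.9 in GW_3h, 1000.2, 950.2 and 919.9 in LK_6h and 1235, 1080 and 1145 in GW_6h. The 3 GW_6h arrays were the highest of the 12. Hk1 rose by 0.48 with GW5074 (SE 0.101, adjusted p = 0.00435), a 1.40-fold rise that held without any single array. In low potassium it had 0.06 (adjusted p = 0.72). The 3 control probe sets for hexokinase on the array had lower intensities and were not tested. From GW_3h to GW_6h their means went from 216.6 to 234.0 (3-prime), 132.9 to 144.6 (5-prime) and 132.9 to 149.2 (middle). These steps are smaller than 1.40-fold, and on each of the 3 sets the arrays at 3 h and 6 h overlapped (SD in GW_3h 27.5, 50.8 and 21.4). The Hk1 rise therefore rests on 1 probe set. In low potassium their means went from 231.0 to 225.4, 150.2 to 143.1 and 151.5 to 170.4.

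Of the enzymes that follow, Gpi, which turns glucose 6-phosphate into fructose 6-phosphate, read 3667, 4203 and 4235 in LK_3h, 3998, 4104 and 3906 in GW_3h, 4341, 3881 and 4199 in LK_6h and 4448, 4039 and 4443 in GW_6h. With GW5074 the times overlapped, since GW_6h B lay within the 3 h range. Its rise with GW5074 was 0.30 (1.23-fold, SE 0.0811, adjusted p = 0.0171), and in low potassium it had 0.17 (adjusted p = 0.145). The call ended without GW_3h A, GW_3h B, GW_6h A or GW_6h C (adjusted p between 0.0533 and 0.0764), and with other scalings of the arrays.

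Phosphofructokinase, which commits sugar to glycolysis, is built from the subunits Pfkm (muscle), Pfkl (liver) and Pfkp (platelet). Pfkm rose with GW5074 from 1405 ± 138 to 1845 ± 196 (SD, n = 3 each; log2 0.52, adjusted p = 0.019) and had 0.26 in low potassium (adjusted p = 0.209). That call ended without GW_3h A, GW_3h B or GW_6h A (adjusted p between 0.0503 and 0.0937). The other 2 tested Pfkm probe sets had 0.02 and 0.22 with GW5074, and 0.08 and -0.42 in low potassium, none called. Pfkl had -0.41 in low potassium and -0.18 with GW5074, and Pfkp -0.18 and -0.11, neither called in the main fit. Under other scalings of the arrays Pfkp fell in both treatments.

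The 2 aldolases, which cut the sugar into trioses, differed. Aldoa, the muscle and general form, had -0.10 in low potassium and 0.02 with GW5074 and was not called in the main fit. Aldoc, the brain form, found in astrocytes and in bands of Purkinje cells, read 278.8, 454.5 and 768.7 in LK_3h, 341.3, 432.4 and 596.3 in GW_3h, 1208, 598.4 and 1375 in LK_6h and 1267, 794.8 and 1202 in GW_6h. In low potassium LK_6h B lay below LK_3h C, so the times overlapped, while with GW5074 they did not. Aldoc rose 2.14-fold in low potassium (log2 1.10, SE 0.346, adjusted p = 0.0352) and 2.36-fold with GW5074 (log2 1.24, SE 0.346, adjusted p = 0.0189). These calls ended without LK_3h A, LK_3h B, LK_6h A or LK_6h C in low potassium (adjusted p between 0.0983 and 0.148) and without GW_3h A, GW_3h B, GW_6h A or GW_6h C with GW5074 (between 0.0602 and 0.0832).

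Gfap, the intermediate filament of astrocytes, moved beside Aldoc: it read 368.1, 380.1 and 671.3 in LK_3h, 356.7, 362.1 and 545.4 in GW_3h, 2764, 728.1 and 2346 in LK_6h and 2002, 940.7 and 2032 in GW_6h. As with Aldoc, letter C was the highest at 3 h and letter B the lowest at 6 h in both treatments. Of 12 astrocyte markers 9 were tested, and 2 of these rose in each treatment, Gfap and Aldoc itself. Of the other 7, none was called: Glul had -0.30 in low potassium and -0.48 with GW5074, Slc1a3 -0.33 and -0.50 and Gja1 -0.13 and -0.34, while Aqp4 had 0.62 and 0.53. The median over the 9 was 0.07 and -0.01. Their summed intensity, which includes Gfap and Aldoc, ran from 3070.2 to 3801 in LK_3h, 3063 to 3432 in GW_3h, 4337 to 6677 in LK_6h and 4745 to 5163 in GW_6h. Slc1a2 and Gjb6, which also define astrocytes, were near the floor at up to 24.7 and 21.4. The part of these markers in the change of Aldoc was not tested.

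**Figure D2:**
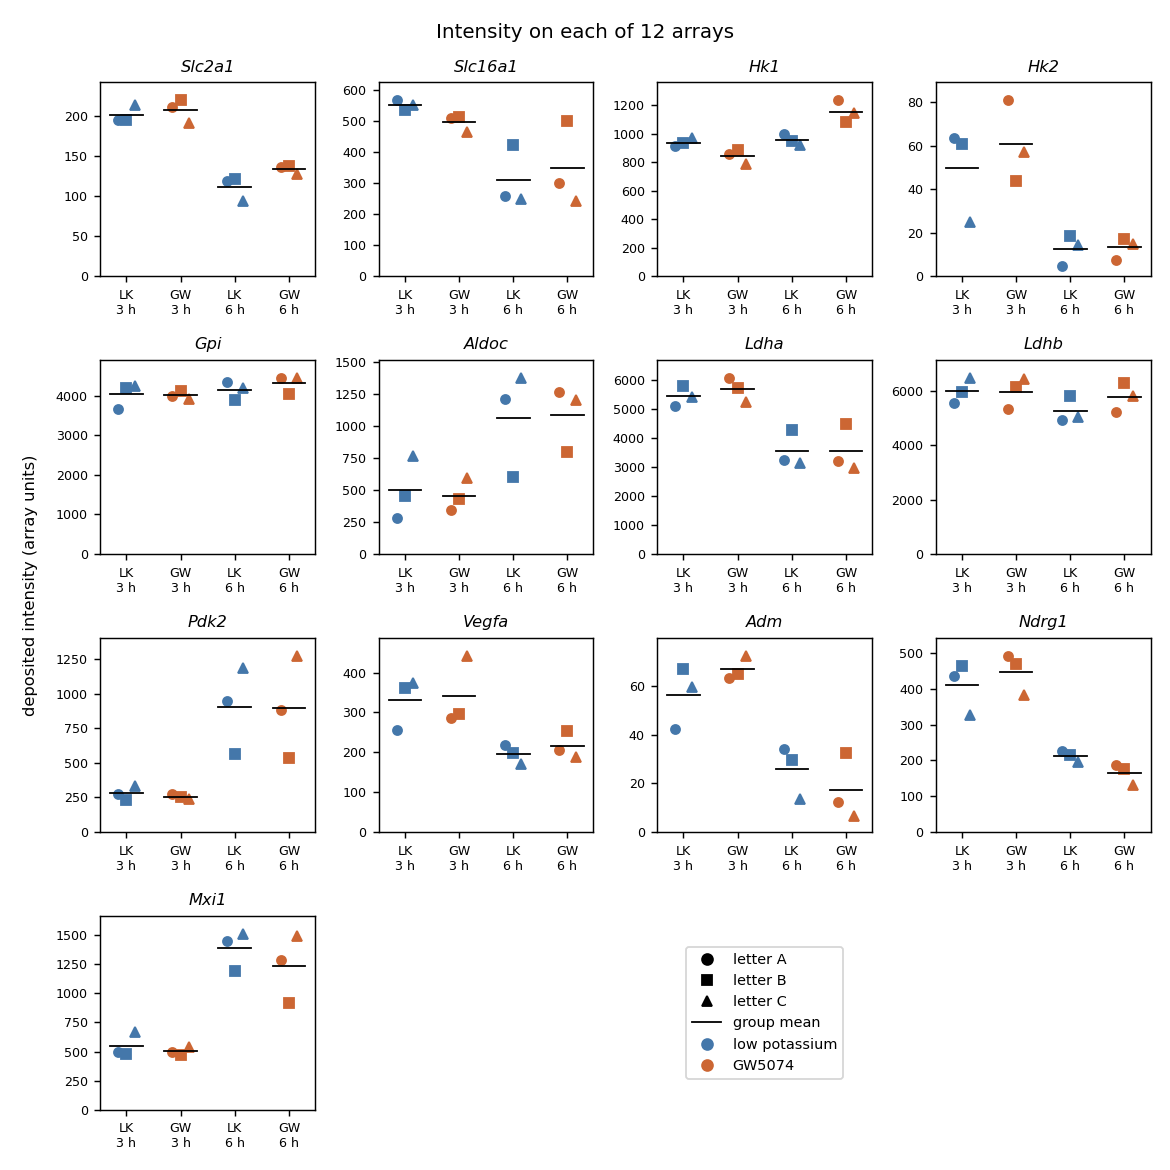
Deposited intensity (vertical axis, from 0) of 13 genes on each of the 12 arrays, in the groups LK and GW at 3 h and 6 h, with letters A, B and C as circles, squares and triangles and the group mean as a line. Slc2a1, Hk2, Vegfa, Adm and Ndrg1 lie lower at 6 h on every array of both treatments, and the 6 h squares (letter B) of Aldoc, Ldha, Slc16a1 and Pdk2 lie closest to the 3 h arrays.

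In the lower arm, Ldha, the lactate dehydrogenase subunit that favours lactate and a HIF-1 target, fell in both treatments. It read 5097, 5765 and 5405 in LK_3h, 6058, 5717 and 5216 in GW_3h, 3232, 4266 and 3120 in LK_6h and 3208, 4464 and 2949 in GW_6h. All 6 h arrays lay below all 3 h arrays, with letter B the highest at 6 h in both treatments. The log2 change was -0.49 in low potassium (1.40-fold, SE 0.134, limma adjusted p = 0.019) and -0.51 with GW5074 (1.43-fold, adjusted p = 0.014). The calls ended without LK_3h B, LK_6h A or LK_6h C (adjusted p between 0.0704 and 0.0814) and without GW_3h A, GW_6h A or GW_6h C (between 0.0553 and 0.0668).

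Pgam1, which moves the phosphate of phosphoglycerate, fell by 0.41 in low potassium (4706 ± 245 to 3221 ± 372, adjusted p = 0.0216) and by 0.38 with GW5074 (4733 ± 145 to 3284 ± 624, adjusted p = 0.0278). These calls ended without LK_3h B, LK_3h C, LK_6h A or LK_6h C (adjusted p between 0.0519 and 0.0978) and without any GW_3h array or GW_6h C (between 0.0592 and 0.114), and without GW_6h C the value was -0.22. Tpi1, which interconverts the trioses, fell by 0.29 in low potassium (5636 ± 186 to 4200 ± 418, adjusted p = 0.0384), a call that ended without any 1 of 6 arrays (each LK_3h array, GW_3h B, LK_6h A and LK_6h C, adjusted p between 0.0562 and 0.139). With GW5074 it had -0.18 (adjusted p = 0.162) in the main fit, and it fell there under other scalings of the arrays.

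The other genes of the lower arm were not called in the main fit. Under other scalings of the arrays Eno1 fell in both treatments and Pgk1 fell with GW5074. Pgk1, which makes the first ATP of the pathway, had -0.08 in low potassium and -0.22 with GW5074. Eno1, the general enolase, had -0.24 and -0.21, and Eno2, the neuronal enolase, 0.16 and 0.28. Ldhb, the subunit that favours pyruvate, had -0.09 and 0.19. Gapdh, which oxidises the triose, is outside the fit. Its 3-prime control probe set averaged 9483 ± 345 in LK_3h, 9827 ± 204 in GW_3h, 8972 ± 465 in LK_6h and 8835 ± 309 in GW_6h (SD, n = 3 each). In low potassium its arrays at 6 h reached 9509 and overlapped those at 3 h, which began at 9223. With GW5074 they did not overlap, with 8519 to 9137 at 6 h and 9681 to 10061 at 3 h. The 5-prime and middle control probe sets of Gapdh overlapped between the times in both treatments. With GW5074 they reached 8264 and 8124 at 6 h and began at 8258 and 8117 at 3 h.

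The bifunctional enzymes Pfkfb2 and Pfkfb3 set the level of fructose 2,6-bisphosphate, the activator of phosphofructokinase, and Pfkfb3 is a hypoxia target. Neither was called. Pfkfb3 had -0.62 in low potassium and -0.57 with GW5074 (SE 0.276 each, limma adjusted p = 0.117 and 0.149). Its letter B arrays at 6 h (135.4 and 161.7) lay at the 3 h level, while the other 4 at 6 h ran from 50.7 to 83.1. Pfkfb2 had -0.18 and -0.06.

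Pyruvate dehydrogenase is switched off by its kinases, which went different ways. Pdk2 rose in both treatments, Pdk1 was called with GW5074 alone, and Pdk3, which is not a member, fell with GW5074 (log2 -0.48, limma adjusted p = 0.036) and had -0.45 in low potassium (adjusted p = 0.0508). Pdk2, a kinase found in most tissues, read 275.4, 233.6 and 331.4 in LK_3h, 271.5, 250.7 and 236.5 in GW_3h, 952.1, 568.3 and 1187 in LK_6h and 885.4, 533.6 and 1278 in GW_6h. Every 6 h array lay above every 3 h array, and letter B was the lowest at 6 h. It rose 2.97-fold in low potassium (log2 1.57, SE 0.284, adjusted p = 0.00232) and 3.14-fold with GW5074 (log2 1.65, adjusted p = 0.00138), the largest rise among the members in both treatments by the log2 change. A dimmer probe set of Pdk2 rose too, by 1.46 and 1.49.

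Pdk1, the kinase best known as a HIF-1 target, rose with GW5074 (117.2 ± 7.25 to 194.0 ± 43.9, SD, n = 3 each; log2 0.57, limma adjusted p = 0.0227) and had 0.15 in low potassium (adjusted p = 0.556). The call ended without any GW_3h array, GW_6h A or GW_6h B (adjusted p between 0.0509 and 0.112). A second probe set of Pdk1 had the other sign, -0.16 in low potassium and -0.39 with GW5074, not called, and the mean of the 2 gave 0.09 with GW5074 (adjusted p = 0.677), so the direction of Pdk1 depends on the probe set. The subunits Pdha1 and Pdhb had 0.14 and 0.13 in low potassium, and with GW5074 they had 0.12 and 0.23. A dimmer Pdha1 probe set had -0.09 with GW5074. None of these values was called. Dld, one of the subunits of the complex that are not members, fell with GW5074 (-0.40, adjusted p = 0.0182) and had -0.12 in low potassium (adjusted p = 0.456).

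Of the remaining hypoxia targets, Ndrg1, Vegfa and Adm fell, Mxi1 rose and P4ha1 was not called. Ndrg1, a stress-responsive gene of the N-myc downstream-regulated family, read 436.8, 465.2 and 327.2 in LK_3h, 492.6, 468.5 and 382.4 in GW_3h, 227.6, 215.5 and 196.6 in LK_6h and 185.7, 176.9 and 132.1 in GW_6h. Every 6 h array lay below every 3 h array, and at 6 h every GW5074 array lay below every low-potassium array. It fell 1.90-fold in low potassium (log2 -0.93, SE 0.167, limma adjusted p = 0.00222) and 2.67-fold with GW5074 (log2 -1.41, adjusted p = 1.85e-04). A second probe set fell too (-1.19 and -1.17).

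Vegfa, the growth factor of blood vessels, read 256.2, 361.6 and 373.8 in LK_3h, 286.5, 296.6 and 442.3 in GW_3h, 219.2, 198.3 and 171.7 in LK_6h and 204.5, 252.6 and 187.7 in GW_6h. The times did not overlap in either treatment. It fell by 0.75 in low potassium (adjusted p = 0.0134) and by 0.69 with GW5074 (adjusted p = 0.018), calls that ended without LK_3h B or LK_6h C (adjusted p between 0.0597 and 0.0643) and without GW_3h C, GW_6h A or GW_6h C (between 0.0684 and 0.0716). A second probe set of Vegfa gave -0.69 (adjusted p = 0.0345) and -0.61 (adjusted p = 0.0528). Adm, the precursor of the vasodilator adrenomedullin, was dim: 42.2, 66.9 and 59.7 in LK_3h, 63.1, 65.1 and 72.5 in GW_3h, 34.3, 29.4 and 13.5 in LK_6h and 12.1, 32.4 and 6.68 in GW_6h. Every 6 h array lay below every 3 h array. Several 6 h readings are as low as those of genes too dim to be tested, so no fold is given. Like Hk2, Adm passed the filter on dim probe sets through its 3 h arrays, and its p-values have the same limit. With GW5074 it fell (log2 -1.36 with 16 added, SE 0.269, adjusted p = 0.00309, and -0.69 with 64 added). In low potassium it fell by 0.80 (adjusted p = 0.0463; -0.42 with 64 added), a call that ended without any 1 of 9 arrays, all but LK_3h A, GW_6h B and GW_6h C (adjusted p between 0.0501 and 0.185). P4ha1, a subunit of collagen prolyl hydroxylase, had -0.34 and -0.30 and was not called.

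Mxi1, a partner of Max that competes with Myc and a HIF-1 target, rose. It read 500.1, 475.4 and 663.9 in LK_3h, 492.5, 473.3 and 539.3 in GW_3h, 1454, 1193 and 1513 in LK_6h and 1285, 920.6 and 1495 in GW_6h. Every 6 h array lay above every 3 h array. It rose 2.61-fold in low potassium (log2 1.38, SE 0.181, limma adjusted p = 4.33e-04) and 2.43-fold with GW5074 (log2 1.28, adjusted p = 4.56e-04). A second probe set of Mxi1 rose by 1.57 and 1.11. Over 24 other settings and left-out arrays, the calls of Mxi1, Pdk2, Ndrg1 and Slc2a1 held in every one in both treatments, as did that of Hk1 with GW5074.

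The scaling of the arrays bears on the bright enzymes. The authors gave each array the same trimmed mean, but the 75th percentile ran from 163.3 to 169.3 at 3 h and from 173.0 to 177.3 at 6 h. With each array scaled to 1 common 75th percentile, 3 members rose and 12 fell in low potassium, and 5 rose and 12 fell with GW5074, where the main fit has 8 and 7. With the deposited scaling alone the counts were 3 and 10, and 7 and 11. Over all genes, the share of calls that rose moved the same way, from 44.8% to 36.3% in low potassium and from 48.8% to 40.2% with GW5074 at the common 75th percentile. The rises of Gpi, Pfkm and Slc2a3 with GW5074 were not called at the common 75th percentile (log2 0.03, 0.31 and 0.30, limma adjusted p = 0.842, 0.0946 and 0.0769), nor that of Gpi on the deposited scaling (0.11, adjusted p = 0.396). Aldoa with GW5074 turned from 0.02 to a fall of 0.25 (adjusted p = 0.0233) at the common 75th percentile. In low potassium it fell there too (-0.24, adjusted p = 0.03). Eno1 and Pfkp, not called in the main fit, fell in both treatments under both other scalings. At the common 75th percentile Eno1 had -0.45 in low potassium and -0.48 with GW5074, and Pfkp -0.38 and -0.37 (adjusted p between 0.00679 and 0.0106). Pgk1 and Tpi1 with GW5074 also fell under both (-0.47 and -0.45 at the common 75th percentile, adjusted p = 0.00934 and 0.00748). Among members not called, the signs of Gpi, Pdha1, Eno2, Pdhb and Hk1 in low potassium and of Ldhb and Pdha1 with GW5074 turned as well. The 10 members called in both treatments kept their direction and their call under both scalings with the exception of Adm in low potassium on the deposited scaling (adjusted p = 0.0512). Some grew: Ldha with GW5074 was -0.77 and Pgam1 was -0.62 in both treatments at the common 75th percentile.

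**Figure D3:**
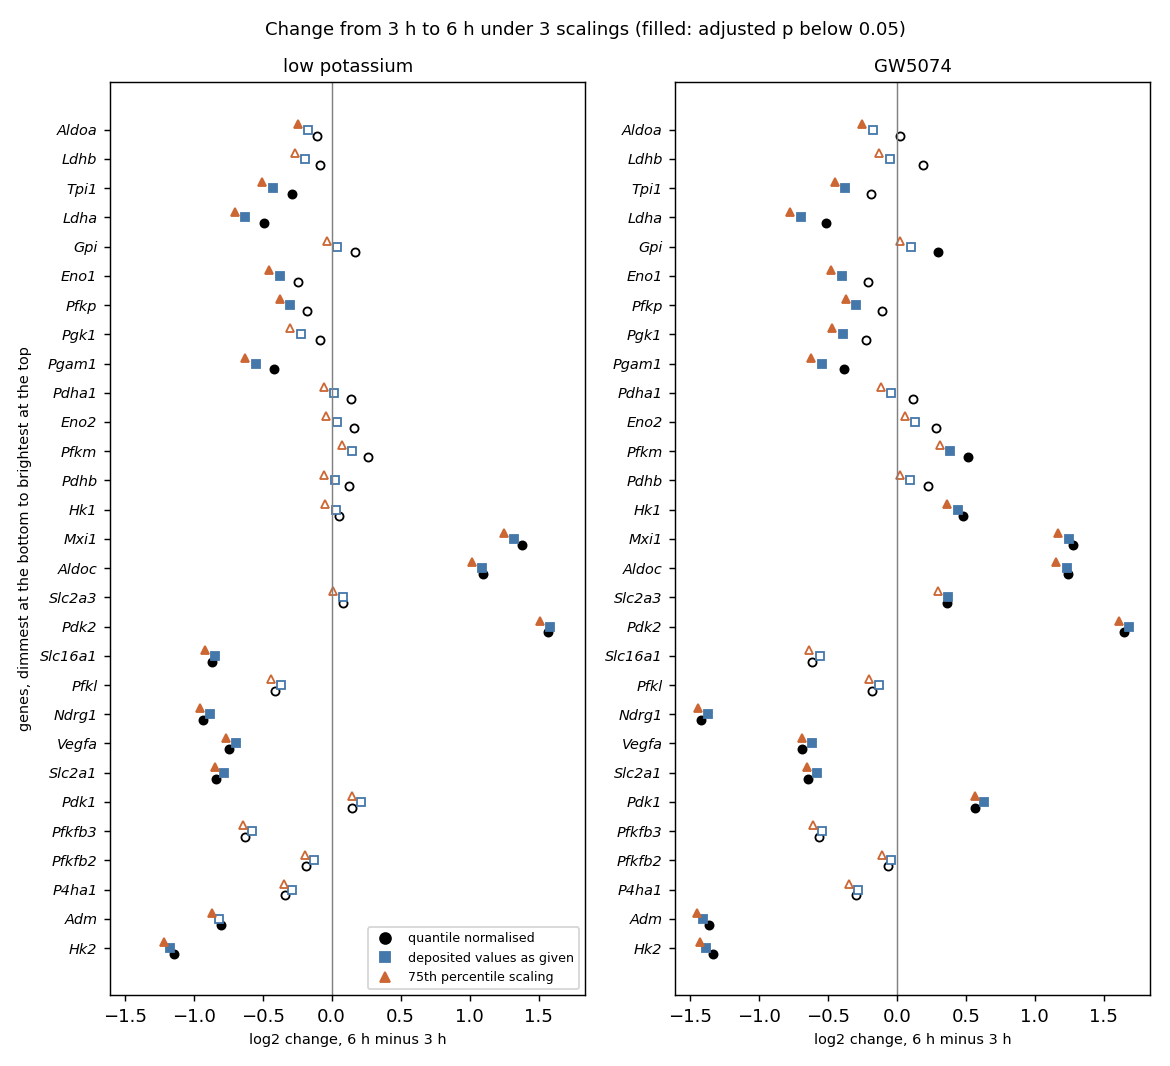
Log2 change from 3 h to 6 h (horizontal axis) of 29 genes, ordered from the dimmest at the bottom to the brightest at the top, under 3 scalings of the arrays, filled where the limma adjusted p was under 0.05. The bright enzymes at the top shift left under the common 75th percentile, where Aldoa with GW5074 reaches -0.25, while less bright genes such as Ndrg1 and Slc2a1 stay close to their place.

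The 6 h arrays of letter B lay between the 3 h arrays and the other 6 h arrays. On a scale where 0 is the 3 h mean and 1 the mean of the A and C arrays at 6 h, the median of the members called stood at 0.597 in low potassium, from 0.248 (Aldoc) to 0.967 (Ndrg1). With GW5074 it stood at 0.570, from 0.261 (Ldha) to 1.28 (Pdk1). Over all genes called the medians were 0.700 and 0.674. Without both of these arrays 15 members were called in low potassium (4 rose, 11 fell), including all 12 of the main fit, and 19 with GW5074 (8 rose, 11 fell), 13 of them among the main 15. The share of all genes called moved with these counts, from 25.6% to 33.8% and from 27.6% to 35.3%. With a single array left out, 4 members were called in low potassium without LK_3h B, 6 without LK_6h A, 5 without LK_6h C, 8 without LK_3h A and 14 without LK_6h B, while 13.4% of all genes were called without LK_3h B and 30.1% without LK_6h B. With GW5074, 8 were called without GW_3h A or GW_6h A, 9 without GW_3h B or GW_6h C, and 17 without GW_6h B, with 15.1% of all genes called without GW_6h A and 32.0% without GW_6h B.

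Between GW5074 and low potassium, the fit without pairs called 0 of the 29 members at 3 h, 0 at 6 h and 0 for the difference between the times, where 0% of all genes were called in each. At an unadjusted p under 0.05 there were 0, 2 (Hk1 and Ndrg1) and 1 (Hk1) members, against 131, 486 and 313 of all 10260 genes. Arrays of the same letter and time deviate together, and a fit that pairs them called 0 members at 3 h (0.00975% of all genes), 1 at 6 h (1.95%) and 0 for the difference (0.185%). At an unadjusted p under 0.05 that fit had 1, 9 and 7 members, against 593, 1710 and 1345 of all genes. The SE of a member's difference in that fit ran from 0.0416 to 0.241 with a median of 0.0823. The median difference over the members was -0.03 at 3 h (all genes -0.01) and 0.08 at 6 h (all genes 0.02), with 6 of 29 members lower with GW5074 at 6 h, against 46.7% of all genes. These values are of the quantile-normalised fit alone, and bright members depend on the scaling. The 6 h difference of Ldhb, for example, was 0.21 in this fit, 0.14 on the deposited scaling and 0.13 at the common 75th percentile.

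Ldhb was the member called with pairs at 6 h. It read 4922, 5829 and 5033 in LK_6h (letters A, B and C) and 5226, 6293 and 5821 in GW_6h. GW5074 was the higher in each pair, while the groups overlapped. Its log2 difference was 0.21 (SE 0.0446, paired limma adjusted p = 0.0261, without pairs 0.983). At 3 h it read 5553, 5964 and 6484 in LK_3h and 5345, 6151 and 6441 in GW_3h, with a difference of -0.07 (paired adjusted p = 0.873). The test of the difference between the times did not pass (0.28, paired limma adjusted p = 0.0757), so the effect is not shown to differ between 3 h and 6 h. Leaving out 1 of the 6 h pairs ended the call (adjusted p = 0.188 without A, 0.0705 without B and 0.0929 without C). It was not called with the letters within time as a random block (adjusted p = 0.149) or with letters as a block over both times (0.572). It also ended in the paired fit without the mean-variance trend (0.363), on the deposited scaling (0.14, adjusted p = 0.278) and at the common 75th percentile (0.13, adjusted p = 0.340). The direction was the same in all of these fits.

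The next members in the paired fit at 6 h did not pass. Hk1 had 0.28 (SE 0.074, paired limma adjusted p = 0.064) and, at 3 h, -0.14 (adjusted p = 0.814), with a difference between the times of 0.42 (adjusted p = 0.105). Ndrg1 had -0.36 at 6 h (adjusted p = 0.0842), and its second probe set had the other sign, 0.12 (adjusted p = 0.824). Slc2a1 had 0.23 and Slc2a3 0.20, while Ldha, Pgam1, Pdk2 and Aldoc had 0.02, 0.02, -0.05 and 0.09. The brightest Mxi1 probe set had -0.20 (adjusted p = 0.279), and its second probe set, which does not stand for the gene here, fell by 0.54 (adjusted p = 0.0417). Beside these, the actin 3-prime minus 5-prime log2 difference, a sign of RNA quality, averaged 0.993 ± 0.0261 in LK_6h and 1.10 ± 0.0563 in GW_6h (SD, n = 3 each), and the poly-A spike-in controls 6.79 ± 0.207 and 6.47 ± 0.0123 on the log2 scale. At 3 h the actin difference averaged 0.936 ± 0.115 in LK_3h and 1.05 ± 0.274 in GW_3h. The spike-in controls averaged 7.21 ± 0.627 and 7.23 ± 0.733 there, higher and more widely spread than at 6 h. The part of RNA quality or of these controls in the treatment differences, or in the changes from 3 h to 6 h, was not tested.

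**Figure D4:**
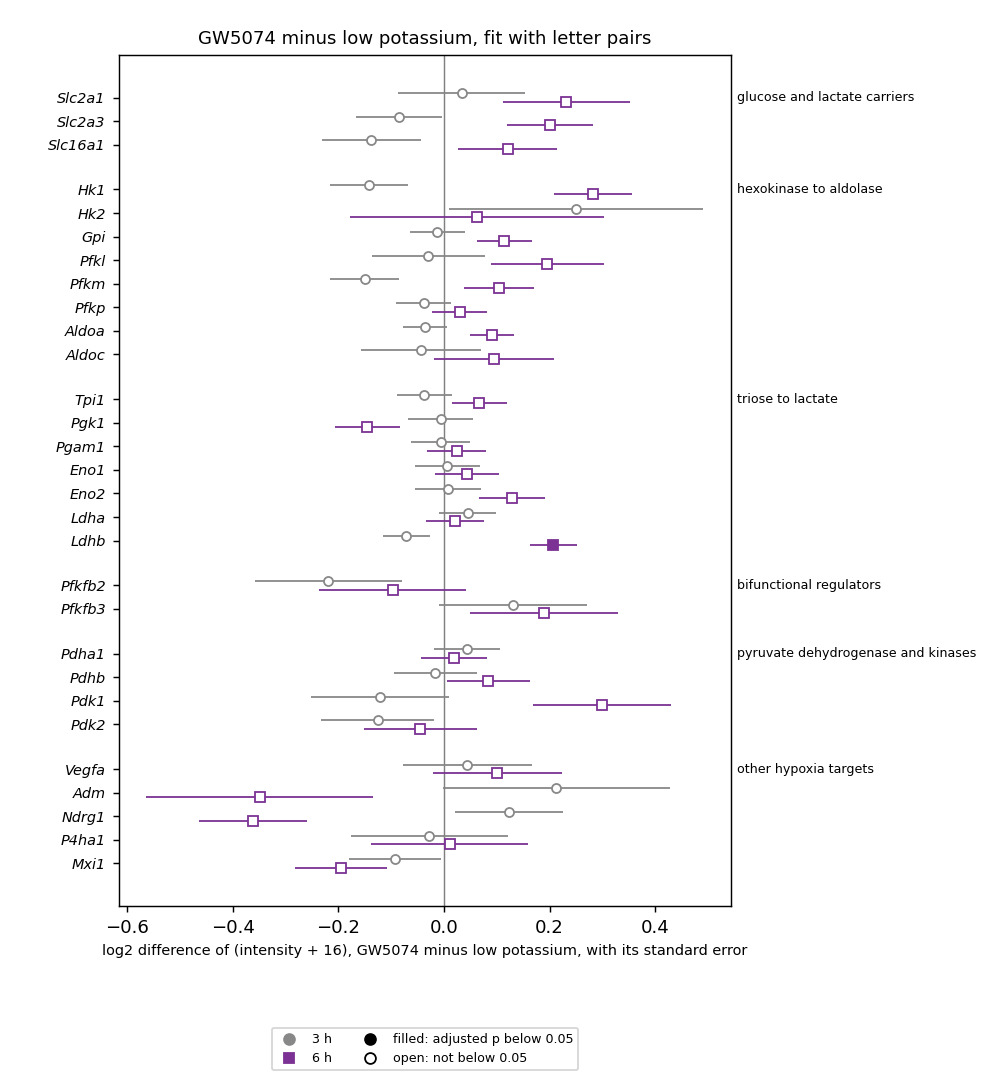
Log2 difference of GW5074 minus low potassium (horizontal axis, with its standard error) of 29 genes in the fit with letter pairs, at 3 h (circles) and 6 h (squares), filled where the limma adjusted p was under 0.05. Only Ldhb at 6 h is filled, at 0.21, and Ndrg1, at -0.36, lies furthest from 0 at 6 h.

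Other genes of sugar metabolism and of the response to low oxygen, and their regulators, are given as counts over lists. Each count is to be read beside the shares of all genes. In low potassium 14.1% of all genes fell and 11.5% rose, and with GW5074 14.1% fell and 13.5% rose. Among 13 genes of the pentose phosphate pathway and of glycogen, 6 fell and 1 rose in each treatment, with a median log2 change of -0.43 in low potassium and -0.39 with GW5074 (all genes -0.04 and -0.02). Gys1, glycogen synthase, fell (log2 -1.35 in low potassium and -1.04 with GW5074, limma adjusted p = 3.51e-04 and 8.59e-04). Ugp2, which makes the UDP-glucose used for glycogen, fell as well (-0.60 and -0.57), as did Gyg1, the glycogen primer (-0.62 and -0.56), and the transketolase Tkt (-0.43 and -0.39). Pygb, the brain glycogen phosphorylase, rose by 0.37 and 0.61.

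Of 16 other glycolytic isoforms and regulators tested, 2 rose and 2 fell in low potassium (median -0.22) and 1 rose and 4 fell with GW5074 (median -0.10). Pgm1, which links glucose 1-phosphate and glucose 6-phosphate, fell (-1.20 and -1.02, limma adjusted p = 8.16e-04 and 0.00143), as did Pgm2 (-0.50 and -0.64). Slc2a13, a carrier of myo-inositol, rose by 0.64 and 0.75. Of 24 genes of pyruvate entry and the citric acid cycle, 2 rose and 2 fell in low potassium (median -0.16) and 2 rose and 4 fell with GW5074 (median -0.08). Of the pyruvate dehydrogenase phosphatases, which undo the kinases' work, Pdp1 rose by 0.67 and 0.45 and Pdp2 fell (-0.97 and -0.71, adjusted p between 0.00341 and 0.0352).

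Of 34 other hypoxia target genes, 6 rose and 8 fell in low potassium (median -0.13), where 11.5% of all genes rose and 14.1% fell. With GW5074 7 rose and 9 fell (median -0.03), where 13.5% of all genes rose and 14.1% fell. Hmox1, heme oxygenase, fell (-1.61 and -1.88), as did Bhlhe40, a repressor of the circadian clock (-2.14 and -1.84). Angptl4, an inhibitor of lipoprotein lipase, rose by 2.34 and 1.94, and Cited2, which competes with HIF-1 for the coactivator p300, by 1.51 and 1.63 (limma adjusted p at most 7.47e-04 for these 4). Of 7 hypoxia sensing factors, 0 rose and 2 fell in each treatment. Arnt2, a partner of HIF proteins in neurons, fell (-0.997 and -0.747), as did Egln3, an oxygen-sensing prolyl hydroxylase that is also on the list of targets (-1.02 and -1.17, adjusted p = 0.0426 and 0.0211). Hif1a, the oxygen-regulated subunit of HIF-1, had -0.16 and -0.11, not called.

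Of 11 regulators of the Myc and Mondo families, 2 rose and 1 fell in low potassium (median -0.09) and 2 rose and 3 fell with GW5074 (median -0.04). Max, the shared partner of Myc and Mxi1, rose by 0.75 and 0.79 (limma adjusted p = 0.00243 and 0.00139), and Mlx, the partner of the glucose-sensing Mondo proteins, fell (-0.41 and -0.76). Between GW5074 and low potassium 0 genes of these 6 lists were called without pairs, and 1 with pairs, Txnip, which restrains glucose uptake and fell by 0.51 at 6 h (paired adjusted p = 0.00491). Of all genes, 1.95% were called with pairs at 6 h.

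The cultures carried the markers of granule neurons. Of 11 granule neuron markers tested, 5 rose in low potassium (11.5% of all genes rose) and 10 with GW5074 (13.5%). The test of the difference between the treatments called 0 of them, with or without pairs, so these counts are not shown to differ. Between GW5074 and low potassium at 6 h, 0 were called without pairs and 1 with pairs (0% and 1.95% of all genes). Their summed intensity ran from 6057 to 8072 at 3 h and from 11697 to 14308 at 6 h. The neuronal nuclear protein Rbfox3 rose by 1.44 and 1.67 (limma adjusted p = 7.49e-05 and 2.71e-05). Among 7 oligodendrocyte markers 1 fell in each treatment (Cnp, -0.66 and -0.61), with a summed intensity of 2655 to 3963 at 3 h and 1849 to 2780.0 at 6 h. Of 6 microglia, 3 fibroblast and 6 Purkinje and GABAergic markers tested, 1 was called, Car8 with GW5074, which fell, and the summed levels of the microglial (350.5 to 777.5 over all arrays), fibroblast (102.6 to 262.0) and Purkinje and GABAergic markers (764.3 to 1032) overlapped between 3 h and 6 h in both treatments. None of the endothelial markers was bright enough to be tested, with readings of at most 35.1. The part of the cell makeup in the changes of the members was not tested.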

How the data were processed

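The values are Affymetrix array intensities on a linear scale, 1 per probe set and array, as deposited by the authors. Each array has nearly the same trimmed mean (2% left out at each end), so the arrays were scaled to a common level before deposit. Scanner files were not used. The sources used here do not name the program that summarised the probes. In the platform table, 20826 probe sets carry 1 gene symbol, and 20758 of these were matched by Entrez identifier to current RefSeq symbols. The members and the other gene lists were chosen with earlier results of these data known.

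From the deposited intensities, arrays were quantile normalised, 16 was added and log2 taken. Probe sets with a mean under the 40th percentile and control probe sets were left out, which kept 18625. A gene stands by its brightest kept probe set. The 4 group means were fitted with limma 3.58.1 (R 4.3.3) with a mean-variance trend, and p-values were adjusted by Benjamini-Hochberg over all probe sets, with a threshold of 0.05. The scripts were tested on simulated data. GW5074 and low potassium share letters A, B and C. Deviations of arrays of the same letter correlated at 0.426, 0.209 and 0.543 at 3 h and 0.293, 0.650 and 0.571 at 6 h. Each low-potassium array correlated best with the GW5074 array of its own letter, and the match in the other direction was not examined. A fit with letter within time as a block is therefore given beside each comparison of treatments (4 residual degrees of freedom, against 8 without). The pairing comes from the data, since the labels do not say what a letter marks. Genes are given with every array's value where they are the 12 members with the smallest p over the comparisons or are called with pairs. The small number of arrays limits the precision. Python 3.11.15 and matplotlib 3.10.9 made the figures. Promoter windows are RefSeq's (GRCr8).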

Additional observations from a re-analysis of the deposited data

How the results depend on the processing

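The count of members called from 3 h to 6 h was 12 in low potassium and ranged from 4 to 14 when each array was left out in turn, while the share of all genes called ranged from 13.4% to 30.1%. With GW5074 it was 15 and ranged from 8 to 17 (all genes 15.1% to 32.0%), and array weights gave 23 (all genes 51.9%). Between GW5074 and low potassium, 0 members were called whichever array was left out. With the replicate block (letters paired within time) 1 member, Ldhb, was called at 6 h, also with each 3 h pair left out, and 0 with any 6 h pair left out. With letters within time as a random block, or as a block over both times, 0 were called at 6 h. Paired fits without the mean-variance trend, without quantile normalisation or at a common 75th percentile, chosen after seeing the data, called 0. The 1 reversed value was Aldoa with GW5074, -0.25 (limma adjusted p = 0.0233) at the common 75th percentile against 0.02. Of 27 calls of a member in a treatment, 11 held under every alternative run. Hk2 and Adm with GW5074 are among the 11 over 23 alternatives, where the others had 24. A stricter filter on dim probe sets, at the 60th percentile, left both genes out and could not test them. Without the filter on dim probe sets, Tpi1, Aldoc and Adm in low potassium and Pgam1 and Slc2a3 with GW5074 were not called. Without the mean-variance trend, Tpi1, Ldha, Pgam1 and Aldoc in low potassium and Gpi, Pgam1 and Slc2a3 with GW5074 were not called. With 4 added in place of 16, Adm in low potassium was not called (adjusted p = 0.0702). With the mean of a gene's probe sets, Pfkm and Slc2a3 with GW5074 had 0.25 and 0.21 (adjusted p = 0.297 and 0.218). Without both 6 h letter B arrays, Slc2a3 and Pdk1 with GW5074 had an adjusted p of 0.0716 and 0.0515. The cause was not tested. Dim genes such as Hk2 and Adm are limited by their signal over background.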
